A study of Homo sapiens with 4 samples.

Results

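The clustered protocadherins are 50 of the 34675 genes in the table used here, taken as the protein-coding rows on chromosome 5 whose symbol begins with PCDHA (15 genes, the alpha cluster), PCDHB (14 genes, the beta cluster) or PCDHG (21 genes, the gamma cluster). RNA came from 2 stable lines of MDA-MB-231, an established human line of triple-negative breast carcinoma taken from a pleural effusion. The LKB1 line carried a pcDNA plasmid with FLAG-tagged wildtype LKB1, the kinase encoded by STK11, and the vector line the pcDNA plasmid alone, with 2 whole-transcriptome libraries from each. The labels do not say whether a line is a clone or a pool, or whether its libraries came from separate cultures, so the p-values rest on how far these libraries differ, and that may be technical spread alone. The titles call the LKB1 libraries fmRNA and the vector libraries mRNA, without saying what this means, and this cannot be told apart from the plasmid. An LKB1 library also carries another run tag, whose part was not tested, since the table has no value per library. The data are 1 comparison deposited by the authors, with a fold and a test for each gene and no value per library. Its direction is not named, and was taken to be LKB1 over vector because STK11 was higher that way (log2 fold 0.62 in the authors' deposited table, 2112 reads in the LKB1 line and 1321 in the vector line), and every direction below rests on that reading. Samples were also checked for a mix-up, and 1 of the 2 groups went against the cell line its labels name. All differences given here carry that limit.

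Clustered protocadherins are cell adhesion proteins with a row of cadherin repeats outside the cell, a single pass through the membrane and a cytoplasmic tail. In the alpha and gamma clusters each gene is a large variable exon with its own promoter, which encodes the whole outer part and is spliced to a few constant exons at the far end of the cluster, so that all members of a cluster share their last stretch. Beta genes are single exons with no constant tail. In mouse neurons a promoter choice in each cell, which depends on CTCF, cohesin and DNA methylation, gives a combination of isoforms that bind only their like on another cell, and this lets branches of a neuron avoid one another. In breast and kidney tumours the clusters are known as a region that can be silenced together by DNA methylation.

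The shared part is shown by the joint between the variable exon and the first constant exon, read from GENCODE 29 transcripts (GRCh38, chromosome 5, plus strand). These joints are printed because they show where a read stops belonging to 1 gene. The last 30 bases of the variable exon are in lower case and the first 30 constant bases in capitals. In alpha the constant part begins at position 140978949 and in gamma at 141494807.
PCDHA1: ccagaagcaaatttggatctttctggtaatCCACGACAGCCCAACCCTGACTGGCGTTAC
PCDHA7: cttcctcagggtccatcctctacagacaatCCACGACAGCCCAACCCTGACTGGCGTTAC
PCDHAC2: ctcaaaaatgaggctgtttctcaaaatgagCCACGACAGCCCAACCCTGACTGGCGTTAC
PCDHGA1: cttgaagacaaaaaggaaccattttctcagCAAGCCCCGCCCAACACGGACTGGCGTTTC
PCDHGB2: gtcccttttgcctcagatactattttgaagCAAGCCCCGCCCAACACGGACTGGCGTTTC
PCDHGC3: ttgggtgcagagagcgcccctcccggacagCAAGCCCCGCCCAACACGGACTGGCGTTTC
All 15 alpha members had the same 30 constant bases and all 21 gamma members shared theirs, while the 30 variable bases differed in every member of both clusters. Beyond the joint, the longest annotated transcripts of all alpha members were identical over 2866 bases and those of all gamma members over 2181 bases. First exons were 2352 to 3427 bases long in alpha and 2397 to 2597 bases in gamma. A read in the shared stretch therefore has no single gene of origin.

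The deposited rows overlap further than the constant exons. Read totals per line, summed over its 2 libraries, were recovered from the fold column. That column also put the depth of the LKB1 line at 1.04 times that of the vector line. This ratio is inferred, since no library size is given, and equal depth below rests on it. Along the alpha cluster the totals never went up from a gene to the next, with 9 to 2 reads in the LKB1 line and 72 to 28 in the vector line between PCDHA1 and PCDHAC2. Along the gamma cluster they ran from 879 to 195 reads in the LKB1 line and from 802 to 243 in the vector line, again without a step up, once PCDHGA11 was left aside, whose row ends 711 bases before the others. Over the whole table, a gene lying inside another on the same strand had no more reads than the outer gene in both lines in 1167 of 1170 pairs (99.7%), against 331 of 657 pairs (50.4%) on opposite strands. Inner genes with at least 20 reads were used, and rows of the clusters themselves are among the same-strand pairs. Totals nest in this way when every read on a gene's strand between its start and its end is counted for that gene, introns and inner genes included. How the authors counted is not given in the sources used here. On this reading PCDHA1 holds the reads of the whole alpha cluster and PCDHGA1 those of the whole gamma cluster. The difference between neighbours gives the reads between a gene's start and the next gene's start, a variable exon with the intron behind it, and these intervals share no read.

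**Figure D1:**
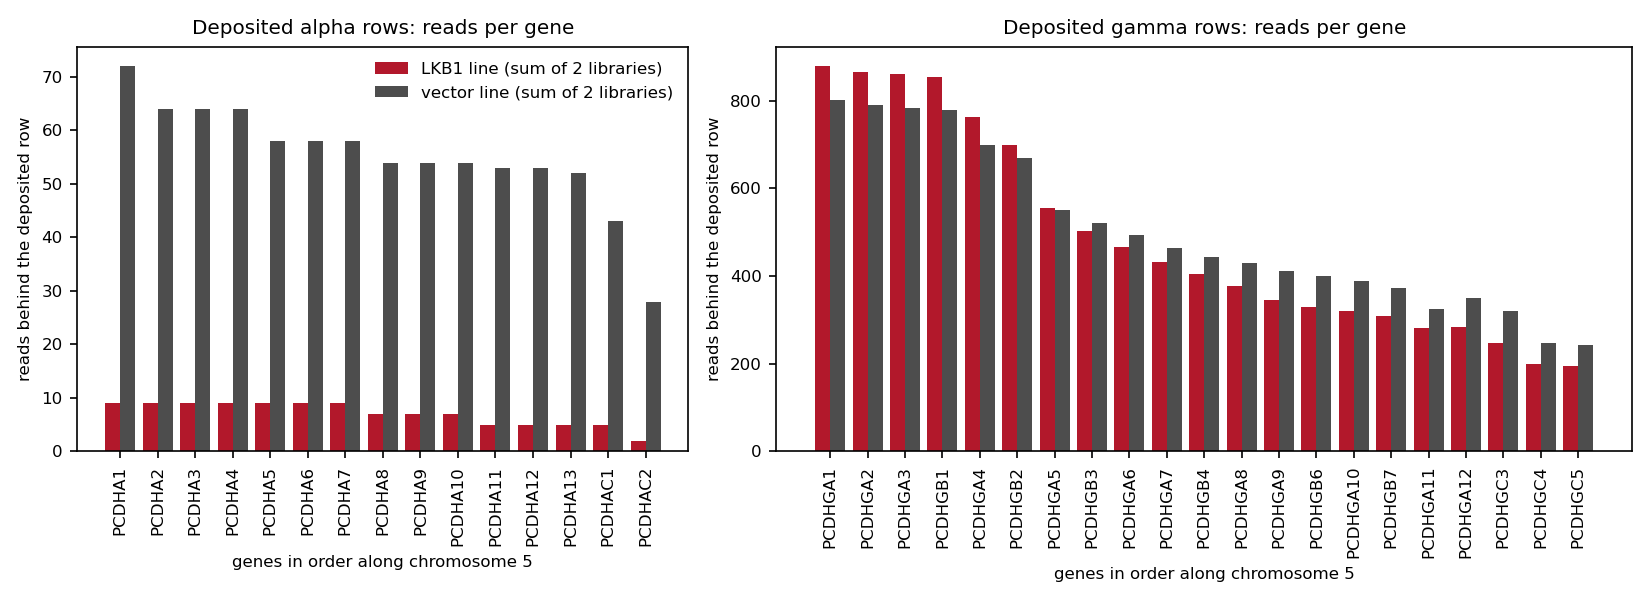
Reads behind each deposited row of the alpha cluster (left) and the gamma cluster (right), in order along chromosome 5, for the LKB1 line and the vector line (sums of 2 libraries, without replicate error). The totals step down from 9 and 72 reads at PCDHA1 and from 879 and 802 reads at PCDHGA1. If totals nest as read in the text, each row except PCDHGA11 holds the reads of the rows to its right. PCDHGA11, whose row ends early, is below its neighbours.

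Alpha protocadherins fell in the LKB1 line, 2 beta protocadherins fell, and gamma protocadherins did not pass the test. In the authors' deposited table, 15 of 15 alpha rows had an adjusted p under 0.05 and all were lower, against 2 of 14 beta rows, both lower, and 0 of 21 gamma rows. Over all 34675 rows 5.79% were called, 3.24% lower and 2.55% higher, and over the 18327 protein-coding rows 9.7%, 5.6% lower and 4.1% higher. The median log2 fold was -2.96 in alpha, -0.74 in beta and -0.19 in gamma, beside -0.04 over all protein-coding rows with reads. The beta and gamma medians have no stable sign, as beta stood at 0.29 over genes with at least 20 reads and gamma at 0.076 for its summed reads and 0.22 over non-overlapping intervals. The 15 alpha calls share their reads and are not 15 observations, as the intervals show.

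**Figure D2:**
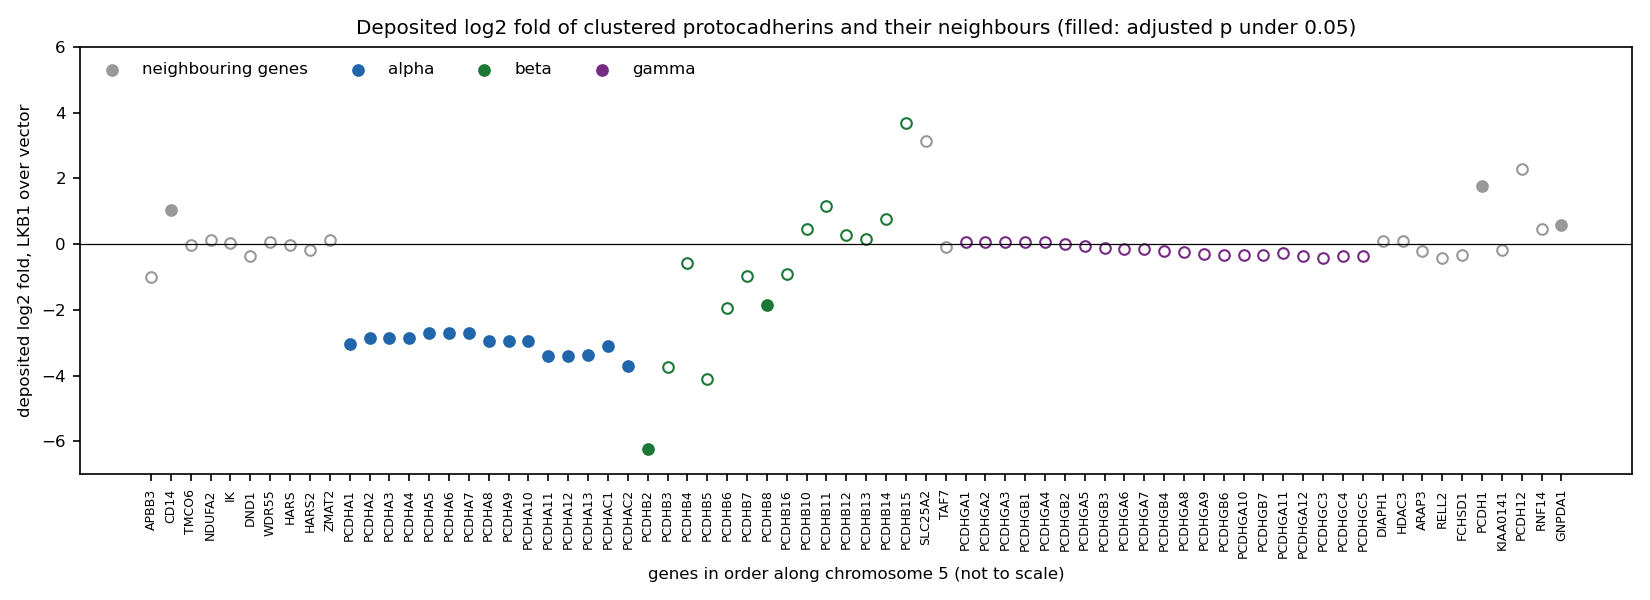
Deposited log2 fold (LKB1 over vector) of the 50 clustered protocadherins, of SLC25A2 and TAF7 between beta and gamma, and of the 10 nearest protein-coding genes on each side, in order along chromosome 5; filled points have an adjusted p under 0.05. Alpha rows lie between -3.70 and -2.71, beta rows run from -6.22 to 3.67 and gamma rows from -0.42 to 0.08.

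Markers of other cell types moved beside these values. Endothelial markers were called lower in 7 of 8 measured genes in the authors' deposited table, beside 5.6% of protein-coding rows. EGFL7 went the other way, with 336 reads in the LKB1 line and 225 in the vector line, and did not pass (log2 0.52). With a variation of 0.4 assumed, 6 of the 7 calls held, beside 1.11% of resolved rows called in either direction. That of KDR was lost (exact conditional test, adjusted p = 0.946). The 8 markers stood at 4 to 336 reads each in the LKB1 line and 53 to 1197 in the vector line. Their sums, with EGFL7 included, were 626 and 2296, and none was at 0 in either line. Neuronal markers fell in 2 of 12 measured genes (UCHL1 and TUBB3) and rose in 0, beside 5.6% of protein-coding rows called lower. UCHL1 had 8 reads in the LKB1 line and 316 in the vector line (log2 -5.32, adjusted p = 8.96e-50 in the authors' deposited table). Its call held with a variation of 0.4 assumed (exact conditional test, adjusted p = 2.36e-08). The TUBB3 call was lost with a variation of 0.2 assumed (exact conditional test, adjusted p = 0.668). Of the 12 neuronal markers 7 had a log2 fold above 0. The 12 summed to 972 reads in the LKB1 line and 1510 in the vector line, at 0 to 800 and 0 to 1091 reads each. STMN2 was at 0 in the LKB1 line, and DCX and ELAVL4 were at 0 in the vector line. All 6 markers of a mesenchymal-like line had more reads than could be recovered as whole numbers, with log2 folds of -0.55 to 0.64. Of these, 3 were called in the authors' deposited table, beside 9.7% of protein-coding rows. CAV1 and AXL were higher (adjusted p = 0.000647 and 0.0387) and MSN was lower (adjusted p = 0.00314). Among luminal or epithelial genes FOXA1 (0 and 1 reads), PGR (0 and 4) and ESR1 (12 and 8) were near absent in the LKB1 line and the vector line, whereas GATA3 had 290 and 259 reads, CDH1 278 and 431 and EPCAM 209 and 152. Only RNA of marker genes was measured, and whether cells of other types were present was not tested. The part of these marker changes in the fall of alpha and of PCDHB2 was not tested. In bulk RNA fewer cells of a type and less RNA per cell, also in the carcinoma cells themselves, cannot be told apart.

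In the alpha cluster the whole change rested on 9 reads in the LKB1 line and 72 in the vector line, the totals of PCDHA1 (ENSG00000204970.5, chromosome 5, 140165876 to 140391929, plus strand, hg19). Its log2 fold in the authors' deposited table was -3.02 (adjusted p = 4.24e-08), and the counts put the LKB1 line at 0.12 times the vector line at equal depth, with an exact (Clopper-Pearson) 95% interval of 0.0528 to 0.241. Such intervals cover counting error only and hold no spread between libraries. The 15 rows had 8 distinct pairs of totals. PCDHA2, PCDHA3 and PCDHA4 each stood at 9 reads in the LKB1 line and 64 in the vector line, with a deposited log2 fold of -2.85. PCDHA5, PCDHA6 and PCDHA7 each stood at 9 and 58 reads (log2 -2.71), and PCDHA8, PCDHA9 and PCDHA10 at 7 and 54 reads (log2 -2.96). PCDHA11 and PCDHA12 both had 5 and 53 reads (log2 -3.40) and PCDHA13 had 5 and 52 (log2 -3.37). Their adjusted p-values lay between 7.59e-07 and 7.71e-06 in the authors' deposited table. No read of either line lay between the starts of the members of such a set. If totals nest as above, 7 stretches held no read in either line. They are those of PCDHA2, PCDHA3, PCDHA5, PCDHA6, PCDHA8, PCDHA9 and PCDHA11. The calls of these 7 rows then rest only on reads of later stretches.

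The rows of the C-type alpha genes, whose variable exons resemble one another more than those of their cluster, hold reads of their own stretches and of the constant exons, which belong to no single member. PCDHAC1, which opens the interval before the last one, had 5 reads in the LKB1 line and 43 in the vector line (log2 -3.10 in the authors' deposited table, adjusted p = 3.69e-05). PCDHAC2 (140345820 to 140391936), needed in mouse for the even spread of serotonergic axons, had 2 reads in the LKB1 line and 28 in the vector line (log2 -3.70, adjusted p = 0.000429). The ratio of PCDHAC2 at equal depth was 0.0687 with a counting interval of 0.00793 to 0.272. The PCDHAC2 row is at once the last interval, with the PCDHAC2 exon and the constant exons, and its reads are part of every alpha row.

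Split into intervals, 8 of 15 alpha stretches had any read, and 7 of these 8 were lower in the LKB1 line. From PCDHA1 to PCDHA2 there were 0 reads in the LKB1 line and 8 in the vector line. That is 2.77-fold lower with 3 reads over the group put in place of 0, and the counting interval of the ratio reached 0.563. From PCDHA4 to PCDHA5 there were 0 and 6 reads (2.08-fold lower in the same way, counting interval up to 0.817). From PCDHA13 to PCDHAC1 there were 0 and 9 (3.12-fold lower, counting interval up to 0.487). From PCDHAC1 to PCDHAC2 the LKB1 line had 3 reads and the vector line 15, a ratio of 0.192 with an interval of 0.0357 to 0.68. The stretch that was higher in the LKB1 line, from PCDHA10 to PCDHA11, had 2 reads against 1, and the 2 reads equal those of the pseudogene PCDHA14 that lies within it. The stretches before PCDHAC1 together had 4 reads in the LKB1 line and 29 in the vector line, a ratio of 0.133 (interval 0.0339 to 0.378), and the stretches from PCDHAC1 on 5 and 43, a ratio of 0.112 (interval 0.0346 to 0.282). These intervals overlap. In an alternative chosen after seeing the data, intervals stood in for the rows and every gene was given an assumed variation of 0.2 between libraries. There, 1 of the 15 intervals was called, that of PCDHAC2 (exact conditional test, adjusted p = 0.000315, beside 3.54% of all resolved rows with reads called at that variation). With an assumed variation of 0.4 it was still called (adjusted p = 0.027, beside 1.11% of resolved rows).

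**Figure D3:**
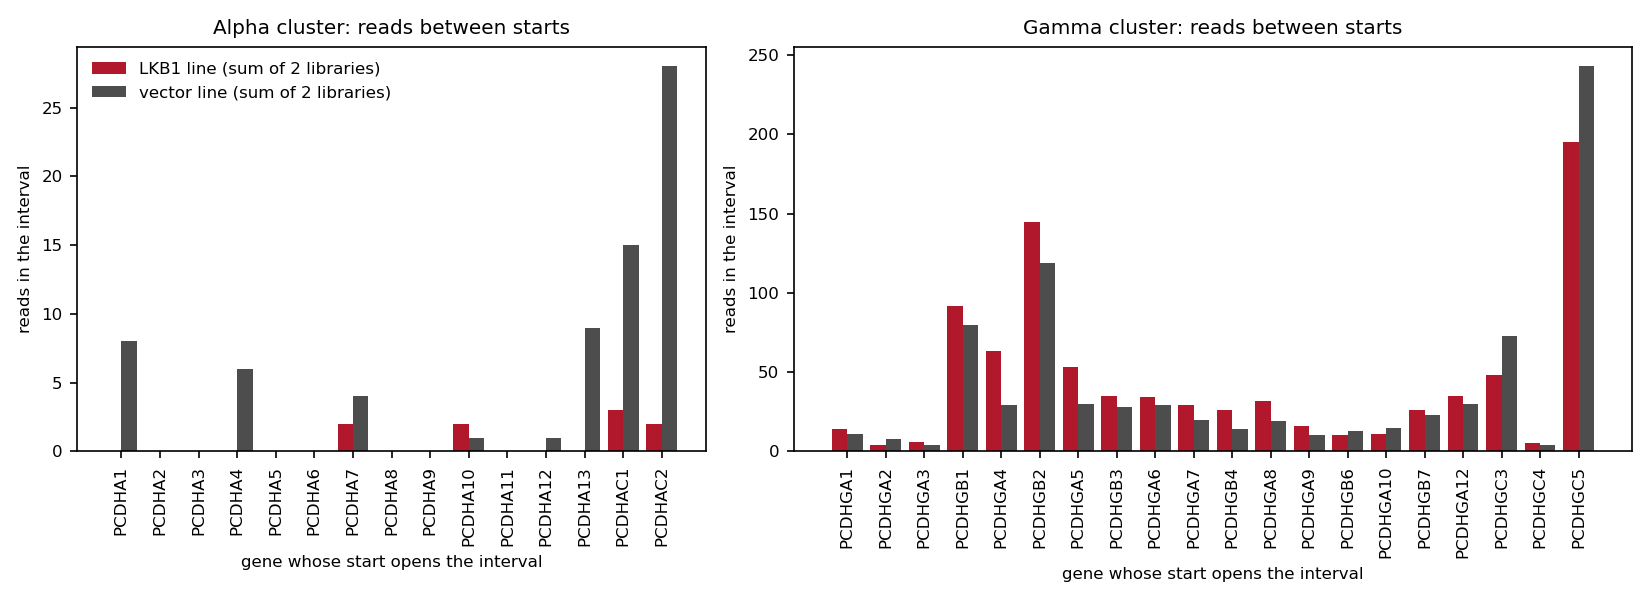
Reads in each interval from a gene's start to the next start, for the alpha cluster (left) and the gamma cluster (right), in the LKB1 line and the vector line (sums of 2 libraries, without replicate error). The last alpha interval holds 2 and 28 reads, and in gamma the LKB1 bars stand above the vector bars in 15 of 20 intervals at equal depth but below them in the last interval, with 195 and 243 reads.

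Beta genes do not overlap and have their own reads. The promoters of 5 genes whose values differ within and between the clusters are printed, from RefSeq (GRCh38.p14, 250 bases before the start site to 50 after it, while positions of rows elsewhere are hg19). The part of these promoters in the differences was not tested. Every CGCT read forward is in capitals, wherever it lies in the window. CGCT is the core of a conserved element known from most promoters of the clusters, but CGCT alone does not show that the element is present. That of PCDHB8 lies within the 50 bases after the start site.
PCDHB2, chr5:141094365-141094664, plus strand: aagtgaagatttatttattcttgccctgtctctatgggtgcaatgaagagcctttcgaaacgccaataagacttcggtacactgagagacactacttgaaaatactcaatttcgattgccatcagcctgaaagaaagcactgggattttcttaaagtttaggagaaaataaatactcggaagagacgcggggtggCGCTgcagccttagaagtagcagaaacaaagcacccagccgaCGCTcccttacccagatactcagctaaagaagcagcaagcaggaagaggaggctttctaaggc
PCDHB8, chr5:141177540-141177839, plus strand: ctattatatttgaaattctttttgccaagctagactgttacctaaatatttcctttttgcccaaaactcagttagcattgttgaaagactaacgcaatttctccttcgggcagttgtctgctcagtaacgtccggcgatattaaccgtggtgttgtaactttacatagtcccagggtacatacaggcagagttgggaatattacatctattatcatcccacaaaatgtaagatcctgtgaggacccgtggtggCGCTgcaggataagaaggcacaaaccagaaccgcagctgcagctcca
PCDHB13, chr5:141213669-141213968, plus strand: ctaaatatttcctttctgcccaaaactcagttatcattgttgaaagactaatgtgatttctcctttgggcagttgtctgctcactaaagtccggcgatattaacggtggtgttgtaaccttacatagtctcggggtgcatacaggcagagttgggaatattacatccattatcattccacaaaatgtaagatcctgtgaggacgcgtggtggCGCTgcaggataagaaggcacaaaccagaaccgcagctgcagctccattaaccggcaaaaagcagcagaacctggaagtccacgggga
PCDHAC2, chr5:140966226-140966525, plus strand: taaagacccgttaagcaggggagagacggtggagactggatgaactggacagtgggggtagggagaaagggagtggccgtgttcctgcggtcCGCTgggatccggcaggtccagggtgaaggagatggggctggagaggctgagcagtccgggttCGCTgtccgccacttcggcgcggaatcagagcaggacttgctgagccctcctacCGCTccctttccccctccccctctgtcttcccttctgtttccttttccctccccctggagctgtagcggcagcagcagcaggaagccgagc
PCDHGC3, chr5:141475716-141476015, plus strand: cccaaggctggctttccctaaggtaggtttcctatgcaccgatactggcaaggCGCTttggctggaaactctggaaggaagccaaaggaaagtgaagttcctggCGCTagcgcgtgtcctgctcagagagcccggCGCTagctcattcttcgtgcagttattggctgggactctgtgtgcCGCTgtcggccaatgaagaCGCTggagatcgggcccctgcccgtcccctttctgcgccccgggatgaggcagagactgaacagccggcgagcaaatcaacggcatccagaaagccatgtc
Promoter windows were at hand for 44 of the 50 members, with more than 1 window for 4 of them. A member was counted if any of its windows held CGCT, while the windows of all genes were counted singly. The shares below are therefore not quite alike. CGCT on either strand was found in 43 of the 44 members (97.7%) and in 70.0% of all 35116 promoter windows. Read forward and between 100 and 34 bases before the start site, a range chosen from these windows, it was found in 40 of the 44 members (90.9%; 12 of 13 alpha, 10 of 12 beta and 18 of 19 gamma) and in 20.5% of all windows. The windows of PCDHB8 and PCDHB13 are near copies. Shifted by 41 bases they overlapped over 259 bases, of which 243 were identical and 16 differed (93.8% identical).

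The first 8 beta genes on the chromosome, from PCDHB2 to PCDHB16, were all lower in the LKB1 line at equal depth, and the last 6, from PCDHB10 to PCDHB15, were all higher. Of these 14 genes 2 passed the test. PCDHB2 (ENSG00000112852.4, 140474227 to 140476962, hg19) had 0 reads in the LKB1 line and 18 in the vector line. That is 6.24-fold lower with 3 reads over the group put in place of 0, and the counting interval of the ratio reached 0.219. The adjusted p of PCDHB2 was 0.00195 in the authors' deposited table. PCDHB8 (ENSG00000120322.2, 140557371 to 140560081) had 12 reads in the LKB1 line and 42 in the vector line, a deposited log2 fold of -1.84 (adjusted p = 0.0148). The call of PCDHB8 was lost with a variation of 0.4 assumed.

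PCDHB16, the neighbour of PCDHB8, had 26 reads in the LKB1 line and 47 in the vector line (log2 -0.90 in the authors' deposited table, adjusted p = 0.34). The other 5 genes of the first stretch had 0 to 2 reads in the LKB1 line and 3 to 8 in the vector line. Without the 2 called genes this stretch held 32 reads in the LKB1 line and 69 in the vector line, which is 0.446 times as many at equal depth (counting interval 0.284 to 0.688). With them it held 44 and 129 reads, a ratio of 0.328 (interval 0.227 to 0.465). The stretch was drawn after the values were seen, as a run of lower genes. Both ratios therefore lie below 1 by that choice and are not a test.

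In the second stretch PCDHB13 had the most reads, 69 in the LKB1 line and 59 in the vector line (log2 0.17, adjusted p = 1 in the authors' deposited table). PCDHB14 had 37 and 21 reads (log2 0.75, adjusted p = 0.644), PCDHB11 26 and 11 (log2 1.17, adjusted p = 0.528) and PCDHB10 23 and 16 (log2 0.46, adjusted p = 1). PCDHB12 stood at 14 reads in the LKB1 line and 11 in the vector line, and PCDHB15 at 3 and 0. None of the 6 passed the test. Their summed reads were 172 in the LKB1 line and 118 in the vector line, a ratio of 1.4 with an interval of 1.1 to 1.79. The border between the stretches was drawn after the values were seen, so this ratio is not a test either. PCDHB9, which the table lists as a pseudogene between PCDHB16 and PCDHB10, had 16 reads in the LKB1 line and 32 in the vector line (log2 -1.04, adjusted p = 0.337).

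Per kilobase of gene span, the level of PCDHB13 was the highest of the cluster in both lines, at 19.8 reads per kb in the LKB1 line and 16.9 in the vector line. In the LKB1 line PCDHB14 (12.6 reads per kb), PCDHB11 (7.57) and PCDHB10 (7.03) followed. In the vector line PCDHB8 (15.5), PCDHB16 (9.76) and PCDHB14 (7.17) came next, and PCDHB2 stood at 6.58 reads per kb, against 0 in the LKB1 line. These levels have no spread between libraries, so the order of neighbours was not tested. Beta genes share stretches of sequence, PCDHB8 and PCDHB13 most of all. Of all 50-base windows of the longest PCDHB8 transcript in GENCODE 29, 45.7% also occur in another beta transcript and 33% in that of PCDHB13, against 9.36% to 23.2% for the other 13 genes. How reads that fit several places were treated is not given in the sources used here, so counts of PCDHB8 and PCDHB13 in particular may be split between them.

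**Figure D4:**
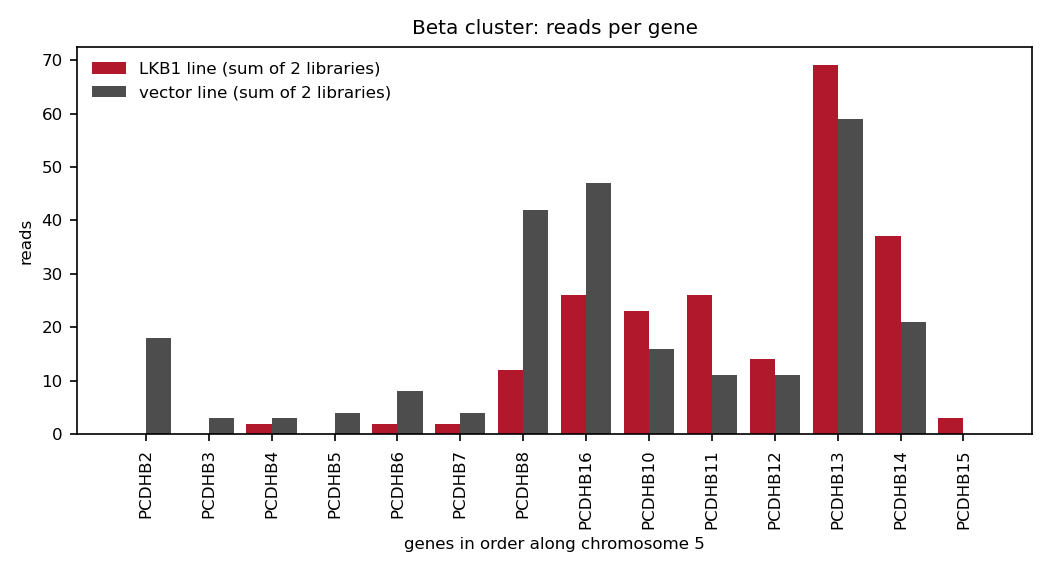
Reads of the 14 beta genes in order along chromosome 5, in the LKB1 line and the vector line (sums of 2 libraries, without replicate error). PCDHB2 shows 0 and 18 reads and PCDHB8 12 and 42, while PCDHB13 shows 69 and 59.

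No gamma row passed the test in the authors' deposited table, where 1 of 21, PCDHGC3, had an unadjusted p under 0.05. Rows at the start of the cluster were near even and rows at its end lower in the LKB1 line. PCDHGA1 (ENSG00000204956.4, 140710252 to 140892546, hg19) had 879 reads in the LKB1 line and 802 in the vector line (log2 0.08, adjusted p = 1). The rows of PCDHGA2 (865 and 791 reads), PCDHGA3 (861 and 783), PCDHGB1 (855 and 779) and PCDHGA4 (763 and 699) repeat nearly the same reads, with deposited log2 folds of 0.07 to 0.08. PCDHGC3, a C-type gene expressed in many tissues, had 248 reads in the LKB1 line and 320 in the vector line (log2 -0.42, unadjusted p = 0.0294, adjusted p = 0.284). PCDHGC4, which in mouse keeps cortical interneurons alive, had 200 and 247 reads (log2 -0.36, adjusted p = 0.559), and PCDHGC5 195 and 243 (log2 -0.37, adjusted p = 0.521). Rows near the end hold few reads besides those of the last intervals, and rows near the start hold all of them.

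The intervals show where the gamma reads lie. Leaving aside the last interval, which holds the constant exons, the busiest stretch was that of PCDHGB2, with 34.6 reads per kb in the LKB1 line and 28.4 in the vector line (145 and 119 reads in 4.2 kb). PCDHGB1 followed in both lines with 18.6 and 16.2 reads per kb (92 and 80 reads). Next came PCDHGA4 in the LKB1 line, at 12.8 reads per kb against 5.88 in the vector line (63 and 29 reads), where PCDHGC3 (7.97) and PCDHGB3 (7.33) stood above it. Variable exons, introns and any intronic RNA are counted together in these densities. Before PCDHGC3, 14 of 17 intervals were higher in the LKB1 line at equal depth. The stretch of PCDHGA4 had a ratio of 2.09 (counting interval 1.33 to 3.37) and that of PCDHGA5, with 53 and 30 reads, one of 1.7 (interval 1.07 to 2.75). At the far end the PCDHGC3 stretch had 48 reads in the LKB1 line and 73 in the vector line, a ratio of 0.632 (interval 0.43 to 0.923), and the last one, with the PCDHGC5 exon and the constant exons, 195 and 243 reads, a ratio of 0.772 (interval 0.636 to 0.936).

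Summed over the 17 intervals before PCDHGC3 the LKB1 line had 631 reads and the vector line 482, which is 1.26 times as many at equal depth (counting interval 1.12 to 1.42). From PCDHGC3 to the end of the cluster it had 248 reads against 320, a ratio of 0.745 (interval 0.629 to 0.883). These counting intervals do not overlap, but the place of the division was chosen after the values were seen and the spread between libraries is not in them. With a variation of 0.2 or 0.4 assumed, 0 of 20 gamma intervals were called. The PCDHGA4 stretch alone had an unadjusted p under 0.05 at 0.2 (exact conditional test, p = 0.0147, adjusted p = 0.242), and 0 had one at 0.4. Over the whole gamma cluster the ratio was 1.05 (interval 0.957 to 1.16), over the 14 beta genes 0.841 (interval 0.697 to 1.01) and over alpha 0.12.

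**Figure D5:**
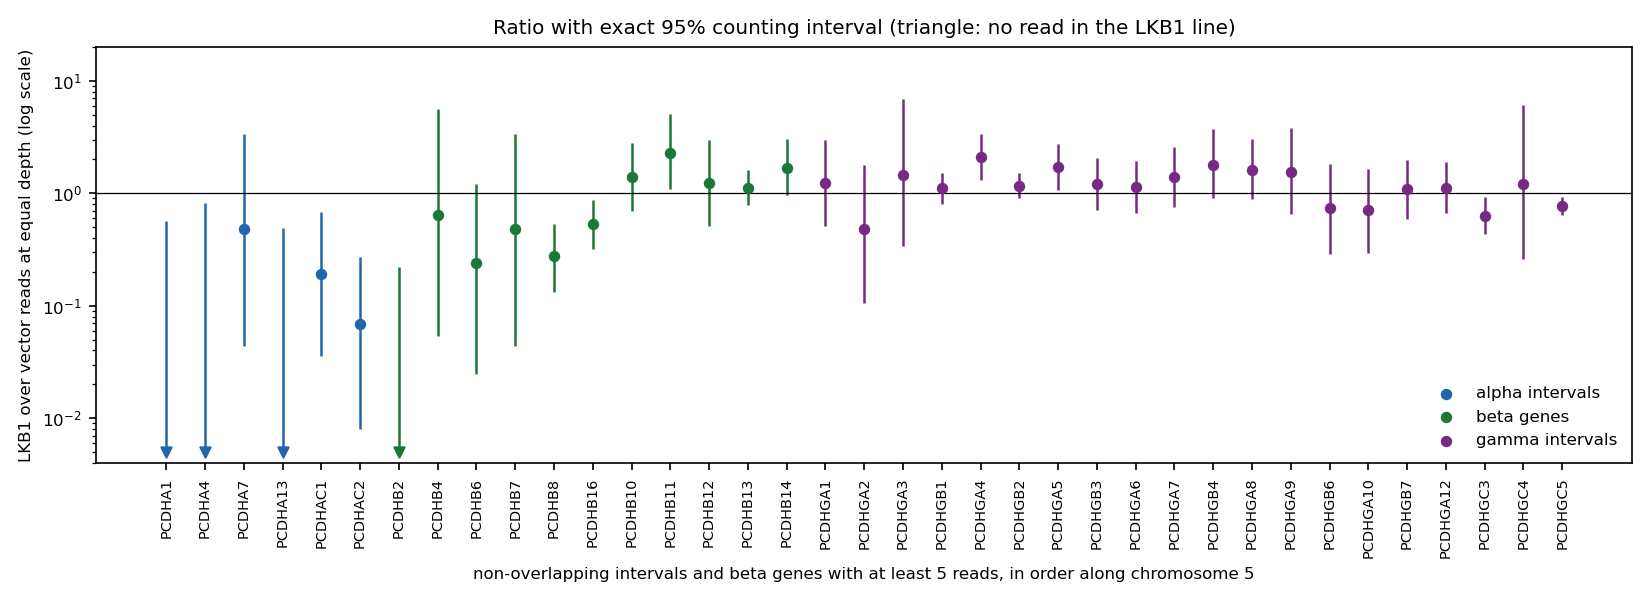
Ratio of LKB1 to vector reads at equal depth (log scale) for alpha and gamma intervals and beta genes with at least 5 reads, in order along chromosome 5; lines are exact 95% counting intervals, which hold no spread between libraries, and triangles mark 0 reads in the LKB1 line. Alpha intervals and the first beta genes lie below 1, later beta genes and most gamma intervals above it, and the PCDHGC3 and PCDHGC5 intervals below it at 0.632 and 0.772.

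None of the genes around the clusters fell as far as alpha. Among the 20 nearest protein-coding genes, 10 on each side, 0 were called lower and 3 higher, beside 5.6% and 4.1% of all protein-coding rows. Their median log2 fold was 0.05. The lowest was APBB3, with 40 reads in the LKB1 line and 77 in the vector line (log2 -0.996, adjusted p = 0.0868 in the authors' deposited table). Before the alpha cluster, ZMAT2 had 773 reads in the LKB1 line and 674 in the vector line (log2 0.14), the mitochondrial histidyl-tRNA synthetase gene HARS2 299 and 322 (log2 -0.16) and the cytosolic one, HARS, 910 and 885 (log2 -0.02), all with an adjusted p of 1 in the authors' deposited table. Between beta and gamma, TAF7, a subunit of the transcription factor TFIID, had 1111 and 1138 reads (log2 -0.09, adjusted p = 1) and the mitochondrial carrier gene SLC25A2 2 and 0. After the gamma cluster, the formin gene DIAPH1 was at a log2 fold of 0.09 and the deacetylase gene HDAC3 at 0.11, with 997 and 890 reads, and ARAP3, which regulates small GTPases, at -0.20, with 848 and 935. The 3 neighbours called higher in the authors' deposited table were CD14, a co-receptor for bacterial lipopolysaccharide (log2 1.04, 144 and 67 reads, adjusted p = 0.0164), PCDH1 (log2 1.78) and the metabolic enzyme gene GNPDA1 (log2 0.58, 901 and 579 reads, adjusted p = 0.00766).

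Protocadherins outside the clusters, which are single genes with their own cytoplasmic tails, went both ways. Of 11, 3 fell, 1 rose and 7 did not pass in the authors' deposited table, with a median log2 fold of -1.63 over the 10 with reads, beside 9.7% called among all protein-coding rows. PCDH7 had 25 reads in the LKB1 line and 508 in the vector line (log2 -4.39, adjusted p = 2.73e-46), PCDH10 9 and 48 (log2 -2.44, adjusted p = 9.82e-06) and PCDH18 15 and 55 (log2 -1.91, adjusted p = 0.000194). PCDH1, which lies 340 kb beyond the gamma cluster, rose with 376 reads against 105 (log2 1.78, adjusted p = 1.17e-12). With a variation of 0.4 assumed PCDH7 stayed called, and PCDH1, PCDH10 and PCDH18 did not (exact conditional test, adjusted p = 0.227, 0.124 and 0.349).

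Of 26 regulators of chromatin known for the clusters or for DNA methylation, 1 fell, 1 rose and 24 did not pass, with a median log2 fold of -0.11. This count is near the 9.7% called among all protein-coding rows. DNMT3B, a DNA methyltransferase that in mouse embryos methylates clustered protocadherin promoters, had 110 reads in the LKB1 line and 279 in the vector line (log2 -1.40 in the authors' deposited table, adjusted p = 3.02e-06), a call lost with a variation of 0.4 assumed (exact conditional test, adjusted p = 0.717). NIPBL, which loads cohesin onto DNA, had 2178 reads in the LKB1 line and 1480 in the vector line (log2 0.50, adjusted p = 0.0248), a call lost with a variation of 0.2 assumed (adjusted p = 0.664). CTCF, which binds the promoters of the clusters, had 972 reads in the LKB1 line and 1015 in the vector line (log2 -0.12, adjusted p = 1), and SMCHD1, which in mouse represses the clusters, 1773 and 1341 (log2 0.35, adjusted p = 0.205).

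Of 26 genes for partners of the cytoplasmic tails or for their cleavage, 3 rose, 2 fell and 21 did not pass, beside 9.7% called among all protein-coding rows, with a median log2 fold of 0.07. NLGN1, an adhesion protein of synapses that binds gamma protocadherins in mouse, had 202 reads in the LKB1 line and 449 in the vector line (log2 -1.21, adjusted p = 1.51e-07 in the authors' deposited table). WASF3 (log2 -0.70, 183 and 287 reads, adjusted p = 0.0137) fell and NCKAP1 (log2 0.44, 3673 and 2595 reads, adjusted p = 0.0318) rose, both subunits of the actin-regulating WAVE complex, which alpha tails can bind. The protease ADAM10, which sheds the outer part of gamma protocadherins in mouse, rose by a log2 fold of 0.54 (adjusted p = 0.00529), and the kinase gene PRKCA by 0.46 (2728 and 1905 reads, adjusted p = 0.0471). With a variation of 0.2 assumed the calls of WASF3, NCKAP1 and PRKCA were lost (exact conditional test, adjusted p = 0.372, 0.754 and 0.745), and at 0.4 that of NLGN1 (adjusted p = 1). ADAM10 had too many reads for whole totals to be recovered, so this alternative was not run on it.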

How the data were processed

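RNA of 2 LKB1 and 2 vector libraries of MDA-MB-231 was compared by the authors. Tools named in the submitters' processing notes, without their roles, are edgeR 2.6.0, TopHat2 2.0.6 and CASAVA 1.8.2, with the build hg19. How reads were counted is not given in the sources used here. The authors deposited for each gene a linear ratio of the lines (fold change) and the same on the log2 scale, per the file headers. The authors also deposited an unadjusted p-value and an FDR. Adjusting the unadjusted p-values by Benjamini and Hochberg's method over all 34675 rows gave the FDR column to within 1.89e-06. The table holds no value per library.

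Reads per line were recovered from the deposited fold, which carries a prior of 0.255 reads in the LKB1 line and 0.245 in the vector line, read from the most frequent folds. Of 28242 rows with reads 27468 (97.3%) gave whole totals within a tolerance of 1e-05, with vector totals up to 3000 tried. The recovery and the exact conditional test for an assumed variation between libraries were tested on simulated data (Python 3.11.15, scipy 1.17.1). Intervals are exact binomial ones at 95%, and folds for a line at 0 reads use 3 reads over the group in place of 0. A gene was called at an adjusted p under 0.05.

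Members, lists and the rule for named genes were chosen with earlier results of these data known. The rule takes called members, the 5 others with most reads in a cluster, C-type members, the 3 nearest neighbours on each side with the genes between clusters, and up to 6 called genes a list. PCDHGB2, PCDHGA5, PCDHB12, PCDHB15, PCDHB9, PCDHA14, CTCF, SMCHD1, CD14, GNPDA1, APBB3 and single marker genes were named after their values were seen. Sequences came from RefSeq (GRCh38.p14) and GENCODE 29.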

Additional observations from a re-analysis of the deposited data

How the results depend on the processing

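All 15 alpha rows stayed called at adjusted p thresholds of 0.01 and 0.1, with adjustment over protein-coding rows, with a fold of at least 2 and with an assumed variation of 0.2 or 0.4 between libraries. With at least 40 reads 14 were left and called, and with at least 200 reads 0 were left. The alpha rows share their reads, so these are not separate observations. Of the 15 alpha intervals, which share none, 1 was called at either assumed variation. The count of beta genes called was 1 at a threshold of 0.01, 1 with at least 20 reads, 1 with at least 40 reads, 1 with a variation of 0.4 assumed and 0 with at least 200 reads. The PCDHB2 call was lost under the read minimums because it had 18 reads in all, and that of PCDHB8 at 0.01 and at a variation of 0.4. The beta median log2 fold was 0.29 with at least 20 reads, where the genes at 0 to 3 reads in a line drop out, -0.37 with at least 40 reads, -0.40 with 3 reads added to each line and -0.25 for the summed reads. The gamma median was 0.076 for the summed reads and 0.22 over the intervals, an alternative chosen after seeing the data, because the rows share reads. The gamma count stayed at 0 under every alternative run. Over the assumed variations and the added reads, the alternatives run on each of the 30 named members, the call that changed was that of PCDHB8 at a variation of 0.4.

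No paired analysis was possible because the table holds no value per library, and for the same reason leaving out each library was not run. Whether a change rests on 1 library was not tested, and the assumed variations are not estimates. Alpha depth, 81 reads in all, does not separate most of its members.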

Other observations

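Other genes at the clusters were measured beside the members. The 3 vault RNA genes before the alpha cluster, which encode small RNAs of the vault particle, had more reads in the LKB1 line and did not pass the test. VTRNA1-2 had 46 reads in the LKB1 line and 15 in the vector line (log2 1.55, adjusted p = 0.0581 in the authors' deposited table). VTRNA1-3 had 37 and 17 reads (log2 1.06, adjusted p = 0.284) and VTRNA1-1 49 and 29 (log2 0.70, adjusted p = 0.781). Among pseudogenes within the clusters, PCDHGB8P had 5 reads in the LKB1 line and 1 in the vector line, PCDHB18 3 and 3, and PCDHB19P 2 and 3.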
